A study of Mus musculus with 10 samples.

Results

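Neuronal activity-regulated genes are switched on when a neuron fires, and 32 of them were followed in the adult mouse hippocampus. The list consists of gene symbols taken for their known induction by activity. Its rule uses no measured value, although earlier results of these data were known when it was chosen. Each symbol was matched by its Ensembl identifier on the GRCm38 annotation. All 32 were found among the 43629 genes of the count table, and all 32 had enough counts to be tested. They were grouped as 27 rapid genes and 5 delayed genes, a working split that was not measured here. The rapid genes comprised 14 transcription factors, 8 feedback and growth regulators and 5 synaptic and signalling effectors. The 5 delayed genes encode secreted proteins or a peptide-processing enzyme.

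RNA was sequenced from the whole hippocampus of 10 mice labelled as 18 weeks old, with 1 library per mouse. The 5 Dp1Tyb mice carried Dp(16Lipi-Zbtb21)1TybEmcf, a duplication on mouse chromosome 16 of the genes from Lipi to Zbtb21 that models part of human trisomy 21 in Down syndrome, and the 5 wild-type (WT) mice did not. Both groups had the strain label C57BL/6J.129P2, and the methods describe them as male littermates and give a slightly higher age than the labels. No stimulus, treatment or time of dissection is named in the sources used here, so the levels are those of mice killed without a stated stimulus, and no time course was measured.

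Depolarisation lets calcium into a neuron, and the kinases this activates phosphorylate factors that are already bound to DNA, such as CREB and serum response factor. These induce the rapid genes within minutes without new protein synthesis. Many rapid genes are themselves transcription factors, which drive a later set of genes for secreted, synaptic and peptide-processing proteins, while others shut the kinase pathway off again. In the hippocampus, Fos and Arc are widely used as markers of recently active cells.

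The duplicated segment served as a check of the labels. Of its 114 tested genes, 68 were called higher in Dp1Tyb and 0 lower, with a median log2 fold change of 0.53. None of the 32 activity-regulated genes lies in this segment. Total counts ranged from 18227684 to 43692270 per library. Defining markers of hippocampal neurons, dentate granule cells and CA pyramidal cells were present in every library, and the summed level of the 5 neuronal markers was 8495 to 9579 CPM (counts scaled to a common library size) in WT and 8988 to 9489 CPM in Dp1Tyb. Choroid plexus markers varied most, with sums of 426 to 5393 CPM in WT and 38.3 to 3890 CPM in Dp1Tyb. All 8 of those genes had lower fitted values in Dp1Tyb, with a median log2 fold change of −0.92. None had an unadjusted p under 0.05 in edgeR, but with such spread between mice this does not show equal levels. The 5 blood markers were also all lower, with a median of −0.43, and 1 of them had an unadjusted p under 0.05. In whole tissue, fewer cells of a type and less RNA per cell cannot be told apart.

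The sequence just upstream of these genes was searched for motifs, which were not used to choose them. The genes were chosen for known induction by activity, which acts in part through CREB, so choice and motif are not independent. The 250 bases before the annotated start were read from a RefSeq table of the GRCm38.p6 build, which held 26 of the 32 genes with 36 start sites. The core of the cAMP response element (CRE), to which CREB binds, was searched as TGACG on both strands. It occurred in 21 of the 36 windows (58.3%), from 19 genes, against 17.8% of all 32851 windows in the table. The whole CRE, TGACGTCA, which contains the core on both strands, occurred in 5 of the 36 windows (13.9%) against 1.55% of all windows. Those 5 belonged to Btg2, Dusp1, Pcsk1, Plk2 and Scg2.

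The promoters of Fos, Nr4a1, Btg2 and Npas4 are printed as those of Fos and of the 3 genes in this table with the smallest p for a slope on Fos, and that of Ier5 because it was the gene called between the genotypes. Capitals mark each TGACG or, on the other strand, CGTCA. Each runs 5′ to 3′ on the gene's own strand and ends at the base before the start.
Fos, plus strand, chr12:85473640-85473889: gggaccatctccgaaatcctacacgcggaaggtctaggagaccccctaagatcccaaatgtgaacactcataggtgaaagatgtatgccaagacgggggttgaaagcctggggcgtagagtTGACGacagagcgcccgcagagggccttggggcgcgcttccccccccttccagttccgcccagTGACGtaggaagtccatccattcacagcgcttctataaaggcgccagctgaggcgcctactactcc
Nr4a1, plus strand, chr15:101266596-101266845: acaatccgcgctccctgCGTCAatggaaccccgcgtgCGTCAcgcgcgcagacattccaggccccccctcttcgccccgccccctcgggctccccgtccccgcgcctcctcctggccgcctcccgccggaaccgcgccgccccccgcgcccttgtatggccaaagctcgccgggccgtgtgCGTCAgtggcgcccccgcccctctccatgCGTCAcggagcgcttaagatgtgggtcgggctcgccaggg
Btg2, minus strand, chr1:134079156-134079405: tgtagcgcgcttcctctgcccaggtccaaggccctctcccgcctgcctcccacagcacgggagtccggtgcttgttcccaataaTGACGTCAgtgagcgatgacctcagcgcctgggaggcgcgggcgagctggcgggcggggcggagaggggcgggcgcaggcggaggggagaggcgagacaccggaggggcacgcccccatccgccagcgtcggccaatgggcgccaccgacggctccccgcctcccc
Npas4, minus strand, chr19:4989972-4990221: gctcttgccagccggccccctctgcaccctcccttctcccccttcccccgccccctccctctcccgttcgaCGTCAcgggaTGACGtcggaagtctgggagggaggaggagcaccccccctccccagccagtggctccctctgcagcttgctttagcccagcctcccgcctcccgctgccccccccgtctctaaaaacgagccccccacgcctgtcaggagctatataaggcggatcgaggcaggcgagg
Ier5, minus strand, chr1:155099637-155099886: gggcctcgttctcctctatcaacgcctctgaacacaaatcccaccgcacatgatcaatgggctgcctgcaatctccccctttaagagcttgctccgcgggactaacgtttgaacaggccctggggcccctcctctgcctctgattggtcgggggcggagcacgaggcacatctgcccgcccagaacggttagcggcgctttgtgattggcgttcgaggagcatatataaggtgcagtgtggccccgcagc

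The Nr4a1 window held 4 of these cores and the Fos and Npas4 windows 2 each. The 2 in Btg2 overlap within a single whole CRE, which begins 166 bases before the start. The Ier5 window held none. The motif GCGNGGGCG, to which the EGR factors bind, occurred in 7 of the 36 windows (19.4%) against 4.70% of all. The CArG box of serum response factor was in 5 windows (13.9%) against 1.47%, but these came from only 2 of the 26 genes, Dusp5 and Egr2. Windows of 1 gene can share sequence, so they are not independent counts. The AP-1 motif TGANTCA, to which FOS and JUN dimers bind, was in none of the 36 windows and in 6.75% of all. These are matches of letters in a short window, and binding was not measured.

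Levels of the activity-regulated genes differed widely. Per length of transcript, as RPKM (CPM divided by exon length in kilobases), the highest was the delayed gene Nptx1, a secreted pentraxin that clusters AMPA receptors at synapses, at 129.8 RPKM as a mean over the 10 mice. Next came Scg2, a secretogranin of dense-core vesicles, at 75.4 RPKM and Plk2, a kinase that weakens overactive synapses, at 46.4 RPKM. Arc, which drives AMPA receptor endocytosis, followed at 25.8 RPKM. The lowest were Egr2 at 0.260 RPKM and Inhba, a subunit of activin, at 0.359 RPKM. Fos itself ranked 26th, at 3.25 RPKM. In counts, Egr2 had between 13 and 74 per library and Fos between 84 and 543, so counting error weighs on Egr2 in particular. Junb, Jun, Dusp1, Dusp5, Homer1, Rheb and Inhba overlap another annotated gene, so the counts of these 7 are uncertain. The overlap is on the same strand for Homer1 and Rheb, on both strands for Dusp1 and on the other strand for the rest. For overlaps on the other strand, the effect depends on the strand setting of the counting, which was not given.

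**Figure D1:**
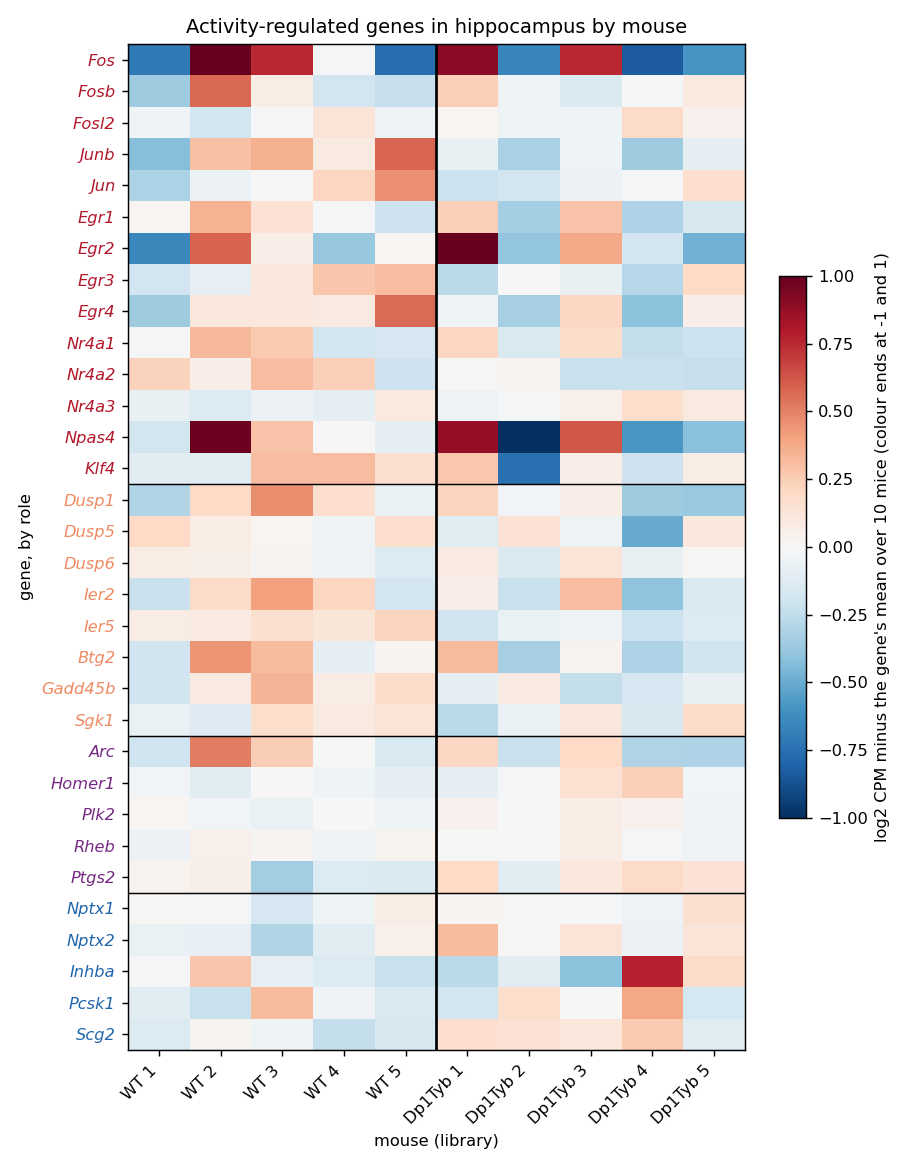
Level of each of the 32 genes in each of the 10 mice, as log2 CPM minus the gene's mean over all mice, with genes in rows grouped by role and WT mice left of the black line. Fos and Npas4 show the strongest colours, and WT 2, WT 3, Dp1Tyb 1 and Dp1Tyb 3 are red in both, while the delayed genes at the bottom do not follow them.

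Mice of one genotype differed most in Fos and Npas4. With CPM scaled by TMM factors, Fos, which encodes the founding AP-1 subunit, was 4.07, 14.6, 11.2, 6.60 and 3.92 in WT replicates 1 to 5. It was 12.4, 4.23, 11.2, 3.73 and 4.43 in Dp1Tyb replicates 1 to 5. Each genotype thus held 2 mice with high Fos, WT 2, WT 3, Dp1Tyb 1 and Dp1Tyb 3, and no mouse lay between 6.60 and 11.2 CPM. The highest mouse had 3.91 times the level of the lowest.

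Npas4, a factor induced by calcium entry and hardly by other signals, gave 13.4, 29.9, 18.5, 15.2 and 14.3 CPM in WT and 27.8, 5.35, 23.3, 10.1 and 11.3 CPM in Dp1Tyb. The same 4 mice were the highest, and the span of 5.59-fold was the widest of the 32 genes. Egr2, an EGR zinc-finger factor, had 0.529, 1.25, 0.868, 0.636 and 0.839 CPM in WT and 1.7, 0.630, 1.08, 0.727 and 0.593 CPM in Dp1Tyb, a span of 3.21-fold at low counts, again with those 4 mice highest.

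The spread was summarised for every gene as the SD of log2 CPM between mice of one genotype, pooled over both. The SD was 0.84 for Fos, 0.75 for Npas4 and 0.52 for Egr2, and 1.03%, 1.40% and 4.68% of the 17237 tested genes had a larger one. The median over the 32 genes was 0.22, against 0.13 over all tested genes, and 23 of the 32 lay above that median. Without the filter on low counts the 2 medians were 0.21 and 0.23. Since spread depends on level, the dispersion estimated for each gene was also divided by the trend at its abundance. This ratio was 12.3 for Npas4 and 10.6 for Fos, was exceeded by 97 and 114 genes respectively, and was 4.48 for Arc and 3.94 for Egr1. It was above 1 for 22 of the 32 genes (68.8%) and for 22.2% of all tested genes.

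By role, the ratio was above 1 for 12 of the 14 rapid transcription factors, 5 of the 8 feedback and growth regulators, 2 of the 5 effectors and 3 of the 5 delayed genes, and the median SD in these groups was 0.27, 0.18, 0.10 and 0.13. At the steady end were Plk2, with an SD of 0.039, and Rheb, a small GTPase that activates mTORC1, with 0.048. Plk2 spanned 199 to 219 CPM over the 10 mice and Rheb 78.9 to 86.4 CPM. The SD was larger in Dp1Tyb than in WT for 15 of the 32 genes, against 50.2% of all tested genes.

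**Figure D2:**
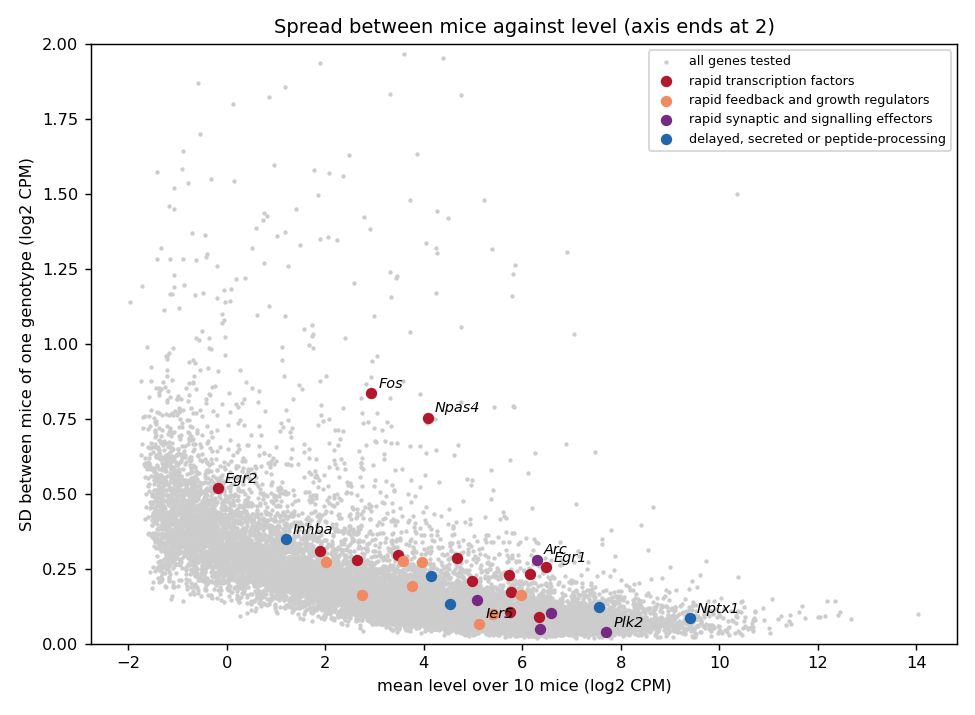
SD of log2 CPM between mice of one genotype (vertical axis, which ends at 2) against mean log2 CPM over the 10 mice (horizontal axis) for the 17237 tested genes in grey and the 32 activity-regulated genes in colour by role. Fos, at an SD of 0.84, and Npas4, at 0.75, lie far above the grey band at their level, and Plk2, at 0.039, lies at its lower edge.

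The design allowed a further question, whether other genes differed between mice of the same genotype along with Fos. It was addressed with the edgeR quasi-likelihood test of a slope on the log2 CPM of Fos, centred within each genotype, with genotype in the fit and Benjamini-Hochberg adjustment over 17236 genes. A slope of 1 means that a gene doubled wherever Fos doubled. Of all genes, 1 passed at an adjusted p under 0.05 (0.0058%), and that gene was Arc. Its slope was 0.33 ± 0.028 (SE, n = 10 mice, adjusted p = 0.000784). Arc had 67.7, 111, 92.1, 77.8 and 69.9 CPM in WT and 89.5, 66.5, 89.0, 63.1 and 62.8 CPM in Dp1Tyb, so that the 4 mice with high Fos all had more than the other 6.

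The 5 smallest p-values among the 17236 genes all belonged to activity-regulated genes. After Arc came Egr1, Nr4a1, Btg2 and Npas4, with slopes of 0.28 ± 0.039, 0.25 ± 0.039, 0.30 ± 0.051 and 0.75 ± 0.13 (SE) and edgeR adjusted p-values of 0.0935, 0.198, 0.275 and 0.275, none of which passed. Egr1, an EGR factor bound up with long-term plasticity, had 89.8, 112, 97.9, 87.3 and 76.7 CPM in WT and 104, 69.9, 107, 71.2 and 78.9 CPM in Dp1Tyb. Nr4a1, an orphan nuclear receptor, had 52.0, 65.5, 62.9, 45.8 and 46.6 CPM in WT and 60.7, 47.1, 59.5, 44.4 and 45.3 CPM in Dp1Tyb. In both genes the 4 mice with high Fos were again the 4 highest.

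Btg2, an antiproliferative cofactor of mRNA deadenylation, had 13.3, 20.8, 19.0, 14.3 and 15.6 CPM in WT and 19.1, 12.1, 15.7, 12.4 and 13.3 CPM in Dp1Tyb. Here too the 4 were the highest, although Dp1Tyb 3 and WT 5 were nearly level. In all, 6 of the 31 activity-regulated genes other than Fos had their 4 highest libraries in these 4 mice, namely Egr1, Egr2, Nr4a1, Npas4, Btg2 and Arc. The same held for 41 of all 17236 genes (0.238%).

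**Figure D3:**
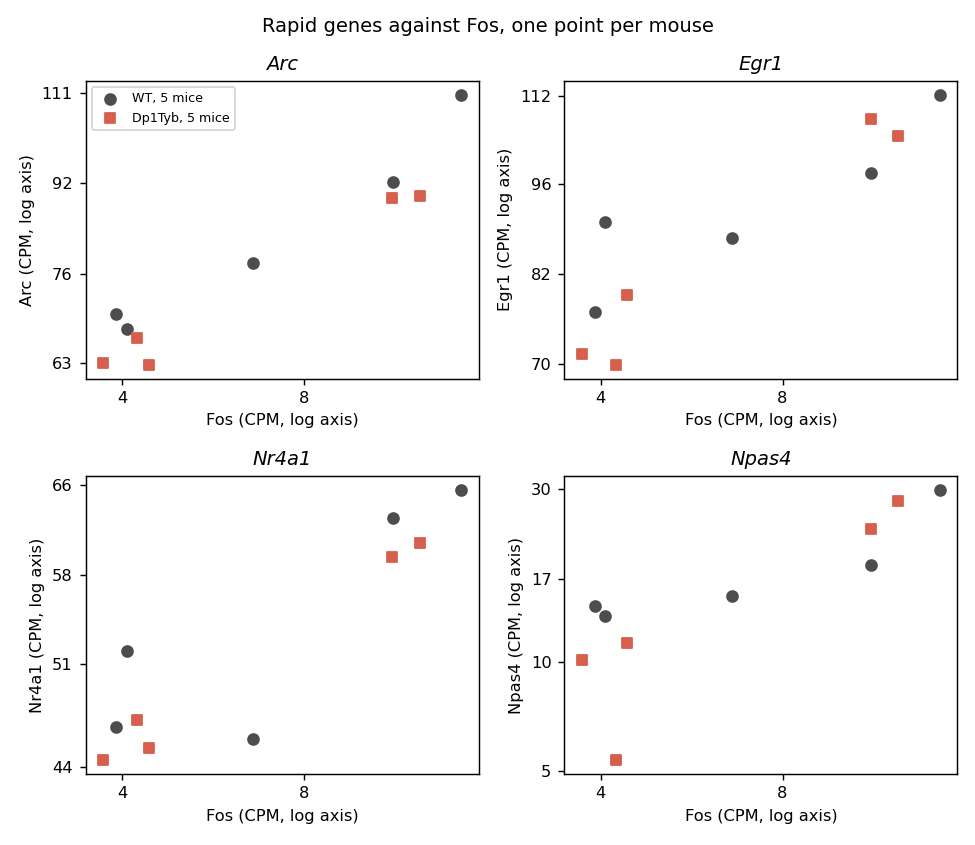
Arc, Egr1, Nr4a1 and Npas4 (CPM, log axis) against Fos (CPM, log axis), with 1 point per mouse, circles for WT and squares for Dp1Tyb. In each panel the 4 mice with Fos of 11.2 CPM or more lie above the other 6, and those 6 show no clear order among themselves.

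At an unadjusted p under 0.05, 11 of the 31 genes (35.5%) had a slope on Fos, against 1.76% of all genes. The slope was positive in 10 of them, against 0.893% of all genes with such a slope, and 20 of the 31 slopes were above 0 at any size, against 50.6% of all. The positive ones were Arc, Egr1, Nr4a1, Btg2 and Npas4 together with Dusp1, Egr2, Ier2, Fosb and Dusp6. Dusp1, a nuclear phosphatase that inactivates MAP kinases, had a slope of 0.27 ± 0.066 (SE), with 9.58, 13.6, 16.3, 13.3 and 11.3 CPM in WT and 13.8, 11.6, 12.4, 9.24 and 9.13 CPM in Dp1Tyb, counts that are uncertain because of overlapping genes. Dusp6, the cytoplasmic phosphatase for ERK, had a slope of 0.078 ± 0.035. Nr4a3 had the one negative slope, at −0.069 ± 0.032. The edgeR adjusted p was 1.00 for each of these except the 5 leading genes.

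By role, an unadjusted p under 0.05 was reached by 6 of 13 rapid transcription factors, 4 of 8 feedback and growth regulators, 1 of 5 effectors and none of the 5 delayed genes. Among the delayed genes the slopes ran from −0.16 for Inhba to 0.051 for Scg2. Several rapid genes had slopes near 0 as well, among them Ier5 at −0.0077 ± 0.034, Gadd45b at 0.025 ± 0.073 and Sgk1 at −0.031 ± 0.060. Jun and Fosl2 had slopes of −0.094 ± 0.079 and −0.057 ± 0.040.

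**Figure D4:**
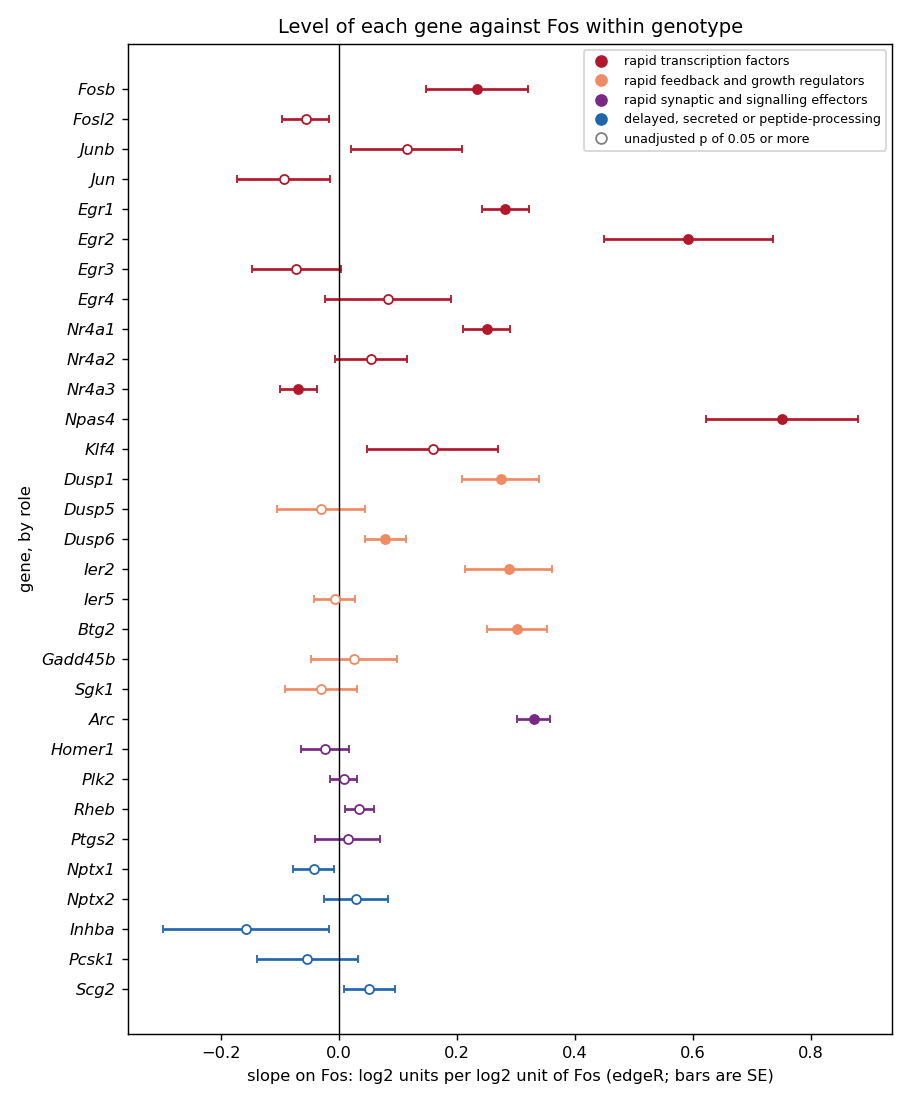
Slope of each of the 31 other activity-regulated genes on Fos within genotype, in log2 units per log2 unit of Fos, with bars for the SE and filled points for an unadjusted p under 0.05. The filled points lie among the rapid genes, up to 0.75 for Npas4, and the 5 delayed genes at the bottom are all open.

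The slopes were also fitted within the 6 mice without high Fos. In those 6 alone, an analysis added after the data were seen, 0 genes passed in edgeR and 0 of the 31 had an unadjusted p under 0.05 (369 of 17554 genes did). Arc then had a slope of 0.23, with an adjusted p of 1.00. The slopes of Egr2, Nr4a1 and Btg2 were −0.24, −0.10 and −0.0041, and those of Ier2 and Dusp1 were 0.62 and 0.47. Fos in these 6 mice ran only from 3.73 to 6.60 CPM, and all but WT 4 lay at 4.43 CPM or below. Slopes there rest largely on WT 4, so they cannot show whether the relation to Fos holds among these mice. Without the mice farthest from the median of Fos, WT 2 and Dp1Tyb 1, Arc kept a slope of 0.30 with an edgeR adjusted p of 0.106. Arc passed in edgeR without any one library, with a highest adjusted p of 0.00864. With a replicate block in the fit 0 genes passed, so Arc did not, and no label ties the replicate numbers to litters or batches. The libraries of the 4 mice with high Fos held 24051821, 18227684, 43692270 and 25396186 counts, against 21461325 to 33092953 in the others, and with library size in the fit the adjusted p of Arc was 0.0020.

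Outside the 32 genes, the 5 smallest p-values belonged to Gm7265, 1700048O20Rik, Gm24357, Mir1943 and Ttll9, with mean levels of 0.381 to 5.29 CPM in either genotype, and none passed. In a list of 34 other activity-regulated genes, which holds Bdnf, Vgf and Per1, 2 had an unadjusted p under 0.05 (5.88%), against 1.76% of all genes. They were Rgs2 with a slope of 0.10 ± 0.042 and Gem with −0.31 ± 0.13 (SE). In a list of 32 calcium, kinase and transcription factor genes that act upstream, such as Creb1, Camk4 and Grin1, 0 had such a p. Of 63 marker genes of neural, vascular, blood and neighbouring tissue, 3 had one (4.76%), all with negative slopes. These were Gfap of astrocytes at −0.073 ± 0.026, Cldn5 of endothelium at −0.11 ± 0.044 and Tmem119 of microglia at −0.12 ± 0.052. Within their lists the signs were mixed. Slopes were above 0 in 3 of the 5 astrocyte, 2 of the 8 endothelial and mural and 2 of the 5 microglial markers. All 5 blood markers had slopes above 0, from 0.11 to 0.19. All 8 choroid plexus markers had slopes below 0, from −0.26 to −0.015. In these 2 lists 0 genes had an unadjusted p under 0.05 in edgeR. The 5 astrocyte markers summed to 3212 to 3851 CPM in WT and 3415 to 3745 CPM in Dp1Tyb, the 8 endothelial and mural markers to 280 to 325 and 289 to 321 CPM, and the 5 microglial markers to 179 to 199 and 144 to 196 CPM. None of these markers was at 0 in any library, and their part in the slopes was not tested.

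Between the genotypes, 1 of the 32 genes was called, Ier5, which was lower in Dp1Tyb. Across all 17237 tested genes the edgeR quasi-likelihood test with Benjamini-Hochberg adjustment called 191 (1.11%), of which the 41 lower in Dp1Tyb made up 0.238% of all genes. Ier5, an immediate early gene whose product acts with protein phosphatase PP2A, had 36.3, 36.4, 38.6, 37.5 and 40.1 CPM in WT replicates 1 to 5. It had 30.1, 33.0, 33.2, 29.8 and 31.4 CPM in Dp1Tyb replicates 1 to 5. The groups did not overlap, which was so for no other of the 32 genes and for 3.68% of all tested genes. On the log2 scale the difference was −0.26 ± 0.049 (SE, n = 5 per genotype, adjusted p = 0.0183), a level of 0.833 times that in WT. The call did not hold without WT 4, WT 5 or Dp1Tyb 1, where the adjusted p was 0.0526, 0.0515 and 0.0516 and the log2 fold change −0.27, −0.24 and −0.25. Ier5 was among the steadiest of the genes between mice, with an SD of 0.067.

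At an unadjusted p under 0.05 there were 6 of the 32 genes (18.8%), against 14.4% of all tested genes, 3 in each direction. In addition to Ier5 they were Junb and Nr4a2, with lower values in Dp1Tyb, and Scg2, Nptx2 and Ptgs2, with higher ones. The largest of these differences was in Junb, an AP-1 subunit, which had 18.7, 30.7, 32.1, 26.7 and 37.5 CPM in WT and 23.9, 20.1, 24.4, 19.6 and 23.5 CPM in Dp1Tyb. It differed by −0.38 ± 0.14 on the log2 scale (SE, adjusted p = 0.263). The lowest of all 10 mice was WT 1, and without it the log2 fold change was −0.51 with an edgeR adjusted p of 0.0331. Junb did not pass without any other library, and without WT 5, its highest mouse, the log2 fold change was −0.27 with an edgeR adjusted p of 0.465. Junb lies opposite Prdx2 on the other strand, and its counts are uncertain for that reason.

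Nr4a2, the orphan nuclear receptor that also marks dopamine neurons, had 63.8, 57.0, 67.2, 63.9 and 47.1 CPM in WT and 54.5, 55.4, 46.5, 46.6 and 46.4 CPM in Dp1Tyb. WT 5 lay among the Dp1Tyb mice, and the difference in log2 was −0.26 ± 0.089 (SE, adjusted p = 0.213). For the transcription factors as a group, 10 of 14 had a fitted value below 0, with a median log2 fold change of −0.14, and none was called. For Fos the fitted value was −0.14 ± 0.42 (SE, adjusted p = 0.91), and this turned to 0.19 without WT 2. Npas4 stood at −0.21 ± 0.37 and Egr2 at 0.27 ± 0.33. With such spread between mice, a difference the size of that in Ier5 was not detectable in these 3 genes.

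Among the 8 feedback and growth regulators, 7 had a fitted value below 0, with a median of −0.17. Gadd45b, which promotes DNA demethylation, had 5.81, 7.11, 8.46, 7.05 and 7.60 CPM in WT and 6.26, 7.07, 5.68, 5.94 and 6.34 CPM in Dp1Tyb, and differed by −0.20 ± 0.10 (SE, adjusted p = 0.413). Dusp1 and Btg2 each stood at −0.18 ± 0.15 and Dusp6 at 0.0055 ± 0.059, which was below 0 without WT 4, WT 5, Dp1Tyb 1 or Dp1Tyb 3. Ier5 was the only one of the 8 called.

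The 5 rapid effectors had a median of 0.047, with 3 above 0. Ptgs2, the inducible cyclooxygenase, had 34.4, 35.0, 26.5, 30.7 and 30.4 CPM in WT and 38.6, 31.1, 36.2, 38.4 and 37.2 CPM in Dp1Tyb, a difference of 0.21 ± 0.079 in log2 (SE, adjusted p = 0.262). Only Dp1Tyb 2 lay within the WT range. Arc stood at −0.17 ± 0.14 and Rheb, with 78.9, 85.4, 83.7, 79.9 and 84.5 CPM in WT and 82.2, 82.0, 86.4, 81.2 and 79.4 CPM in Dp1Tyb, at −0.0037 ± 0.038, and an annotated gene overlaps Rheb. The value for Homer1, a postsynaptic scaffold, was 0.11 ± 0.058, but its short activity-induced transcript and its constitutive long ones are counted together here.

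All 5 delayed genes had a fitted value above 0, with a median of 0.13, and none was called. Scg2 had 171, 192, 183, 160 and 168 CPM in WT and 212, 208, 204, 226 and 174 CPM in Dp1Tyb, so that 4 of the 5 Dp1Tyb mice lay above every WT mouse. The difference was 0.23 ± 0.066 in log2 (SE, adjusted p = 0.133). Without Dp1Tyb 5 the edgeR adjusted p was 0.0281, and DESeq2 called the gene on all 10 mice with an adjusted p of 0.0480. It did not pass in edgeR without any other library, with an adjusted p of up to 0.273 without Dp1Tyb 2. On all 10 mice limma-voom gave an adjusted p of 0.144.

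Nptx2, a secreted pentraxin that gathers AMPA receptors on interneurons, had 22.0, 21.8, 18.8, 21.3 and 23.9 CPM in WT and 28.8, 23.3, 25.3, 22.3 and 25.2 CPM in Dp1Tyb, a difference of 0.21 ± 0.078 in log2 (SE, adjusted p = 0.248). Nptx1 had 683, 667, 601, 654 and 712 CPM in WT and 690, 683, 669, 654 and 755 CPM in Dp1Tyb, at 0.057 ± 0.052. For Pcsk1, a proprotein convertase that matures peptide precursors, the CPM were 16.3, 15.1, 21.9, 17.1 and 15.8 in WT and 15.4, 19.9, 17.6, 22.9 and 15.5 in Dp1Tyb. Inhba had 2.21, 2.70, 2.11, 2.03 and 1.91 CPM in WT and 1.86, 2.06, 1.68, 3.82 and 2.56 CPM in Dp1Tyb, and genes on the other strand overlap it. For these last 2 the sign rested on Dp1Tyb 4: without it the log2 fold changes of 0.090 and 0.13 became −0.0083 and −0.12, which left 3 of the 5 delayed genes above 0.

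**Figure D5:**
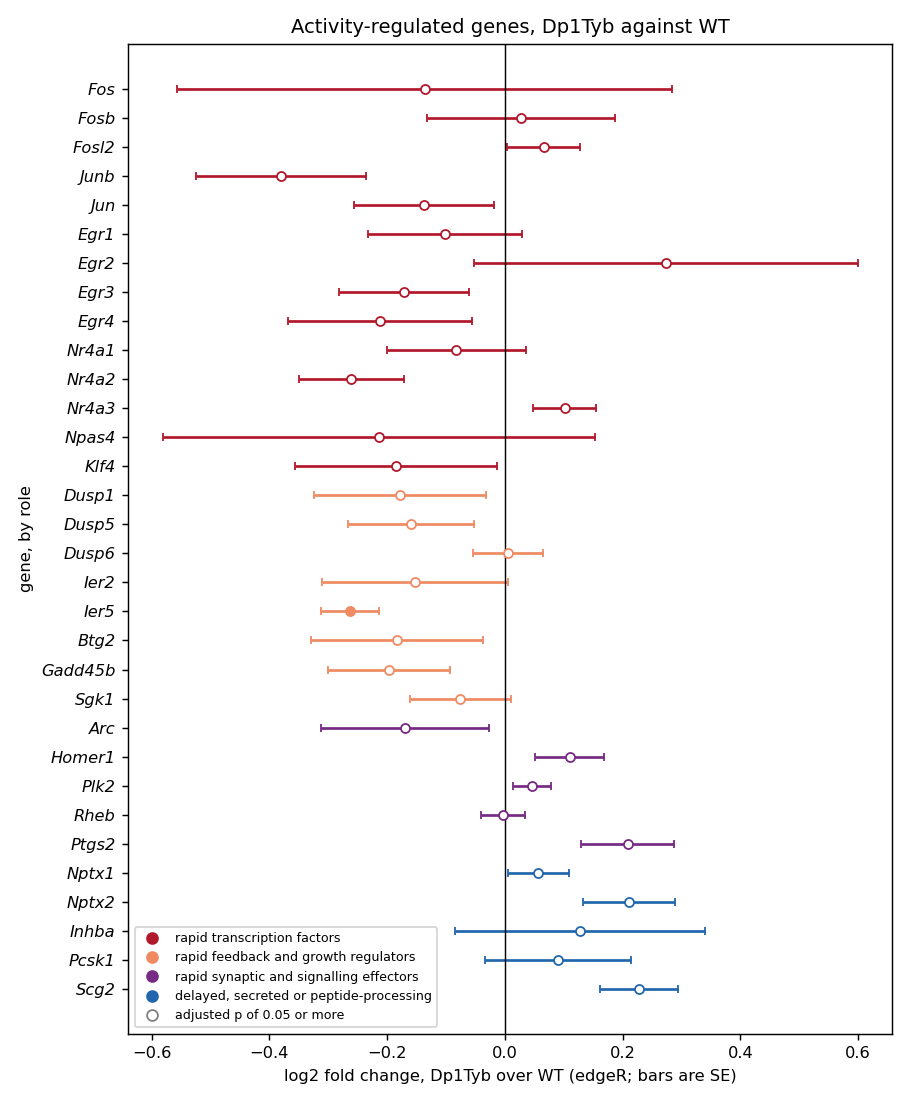
Log2 fold change of Dp1Tyb over WT for each of the 32 genes, with bars for the SE from edgeR and a filled point for an adjusted p under 0.05. Ier5, at −0.26, is the only filled point, the long bars of Fos, Npas4 and Egr2 cross 0, and the 5 delayed genes at the bottom all lie to the right of 0.

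Over the whole list, 13 genes had a fitted value above 0 and 19 below it, with a median log2 fold change of −0.092, against 51.3% of all tested genes below 0 and a median of −0.0041. Without WT 2, the mouse with the most Fos, Npas4 and Arc, the median of the 32 was −0.0027. The group medians of the transcription factors and of the feedback and growth regulators kept their sign without any one library, between −0.23 and −0.019 and between −0.24 and −0.096, and so did that of the delayed genes, between 0.073 and 0.21. These counts describe the fitted values and are not a test of the groups.

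In the 34 other activity-regulated genes, 1 was called (2.94%), against 1.11% of all tested genes. It was Rgs4, a regulator that shortens signalling by G proteins, higher in Dp1Tyb by 0.31 ± 0.068 on the log2 scale (SE, edgeR adjusted p = 0.0448). The next were Npy at 0.14 ± 0.056 and Tac1 at 0.26 ± 0.11, both neuropeptides of interneurons, neither of which passed. The median of that list was 0.0051, with 18 genes above 0. Of the 32 upstream genes none passed. Mef2a, an activity-dependent transcription factor, came closest, at 0.14 ± 0.034 (SE, edgeR adjusted p = 0.0684). It was followed by Map2k1, which encodes the ERK kinase MEK1, at 0.13 ± 0.039 and Crtc2, a CREB coactivator, at −0.17 ± 0.059. An unadjusted p under 0.05 was reached by 9 of the 32 (28.1%), 5 higher and 4 lower in Dp1Tyb, against 14.4% of all tested genes.

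Markers of cell types also differed between the genotypes, with 3 of 63 called (4.76%), against 1.11% of all tested genes. Of the 5 interneuron markers, 4 had values above 0 and 2 were called higher in Dp1Tyb, Vip at 0.43 ± 0.080 (SE, adjusted p = 0.0209) and Gad2 at 0.34 ± 0.074 (adjusted p = 0.0410). Their 5-gene sum was 500 to 589 CPM in WT and 600 to 713 CPM in Dp1Tyb. Of the 5 dentate granule cell markers, 3 had values below 0, each with an unadjusted p under 0.05, and 2 had values above 0, up to 0.14. The 3 were C1ql2, at −0.49 ± 0.13 (SE, edgeR adjusted p = 0.0906), Dsp and Prox1. The sum of the 5 was 327 to 417 CPM in WT and 331 to 356 CPM in Dp1Tyb. Of the 5 astrocyte markers, 3 had values above 0 and 2 below, with a median of 0.036, and Gfap alone was called, higher at 0.26 ± 0.047 (SE, adjusted p = 0.0167). None of the interneuron, dentate or astrocyte markers was at 0 in any library, and the part of these differences in the values of Ier5, Scg2, Nptx2 and the other activity-regulated genes was not tested.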

How the data were processed

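Hippocampal RNA (miRNeasy kit) was made into TruSeq Stranded mRNA libraries and sequenced as paired ends. The authors trimmed reads with TrimGalore, mapped them to GRCm38 with TopHat 2.0.12, discarded multi-aligning reads and used htseq-count to tally reads for each Ensembl gene. Its strand setting and the annotation release are not given in the sources used here. The deposited values used are raw counts, not normalized. Deposited normalized values and the authors' own DESeq2 comparison (mean signal, log2 fold changes, p-values) were not used.

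Symbols and positions came from GENCODE M21 (42548 of 43629 identifiers matched). The members and gene lists were chosen with earlier results of these data known. Counts were tested with edgeR 4.0.16 in R 4.3.3, with TMM scaling, filterByExpr (17237 genes kept) and a quasi-likelihood F-test, called at an adjusted p under 0.05. CPM used TMM factors, and SDs a prior count of 2. RPKM used summed exon length. On simulated counts edgeR recovered 70.5% of genes changed 1.5-fold, with 3.42% false calls, and 97.5% of slopes of 1 or −1, with 4.41% false calls. Those counts were drawn at the trended dispersion, which 22 of the 32 genes exceeded. The planted changes were also larger than any fitted for the 32 genes, so these recoveries do not apply to them.

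All 32 members were accounted for. Those given for every mouse were called or had an unadjusted p under 0.05 between genotypes, or were among the 2 of their role with the largest fold change, the largest SD or the smallest p of the Fos slope. Of other genes, the 5 with the smallest p of the Fos slope were named, and in the other lists those called or among the 3 smallest p. The promoters of Nr4a1, Btg2, Npas4 and Ier5 were chosen after their values were seen. Alternatives were DESeq2 1.42.0, its size factors, limma-voom (limma 3.58.1), no filter, other index genes, a replicate block and each library left out. Labels give no batch or date, and each library was taken as 1 mouse. Total counts of 18227684 to 43692270 set the precision, and 7 members overlap another annotated gene.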

Additional observations from a re-analysis of the deposited data

How the results depend on the processing

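Of 191 genes and 1 activity-regulated gene called between the genotypes, DESeq2 called 507 and 2 (Ier5 and Scg2), and leaving out 1 library gave 105 to 218 genes and 0 to 2 activity-regulated genes (Ier5, Junb or Scg2). The counts under DESeq2 size factors, limma-voom and no filter were within 1.5 times, at 184, 186 and 196 genes, each with 1 activity-regulated gene. The median log2 fold change of the 32 genes lay between −0.14 and −0.0027 when 1 library was left out, the latter without WT 2. Of the 19 genes given for every mouse, 6 changed sign when 1 library was left out: Fos (−0.45 to 0.19), Npas4 (−0.55 to 0.036), Egr2 (−0.092 to 0.48), Rheb (−0.022 to 0.0082), Inhba (−0.12 to 0.23) and Pcsk1 (−0.0083 to 0.19).

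For the slope on Fos, edgeR called 1 gene, Arc. It called 0 genes with Npas4 as the index (234 of 17236 genes and 9 of the 31 had an unadjusted p under 0.05), 0 without WT 2 and Dp1Tyb 1 (482 of 17262 and 7 of 31) and 0 within the 6 mice with low Fos. There Egr2, Nr4a1 and Btg2 gave −0.24, −0.10 and −0.0041, and Ier2 and Dusp1 gave 0.62 and 0.47, slopes that rest largely on WT 4. With Arc as the index edgeR called 1 gene, again activity-regulated, and with library size or DESeq2 size factors 1, Arc. With no filter it called 3, all activity-regulated: Arc, Egr1 (adjusted p = 0.0168) and Npas4 (adjusted p = 0.0279). Leaving out 1 library gave 1 to 3 genes, 1 or 2 of them activity-regulated, Arc each time.

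The median SD of the 32 genes was 0.19 to 0.23 under every alternative, but that of all genes was 0.23 with no filter, when the rows of low count came in. No label ties the replicate numbers to litters or batches, so whether they pair the mice is not known. Deviations of same-numbered WT and Dp1Tyb mice correlated at 0.219, −0.027, 0.212, −0.069 and 0.277 for numbers 1 to 5. With a replicate block edgeR called 315 genes and 1 activity-regulated gene between the genotypes, and for the slope on Fos 0 genes (375 of 17236 and 12 of 31 had an unadjusted p under 0.05), with an adjusted p of 0.150 for Arc. The cause of these shifts was not tested.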
